A study of Homo sapiens with 8 samples.

Results

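The comparison described here set NAD-captured RNA of cells labelled DXO-KO against NAD-captured RNA of wild-type cells. It used 6 of the 8 libraries of the series, chosen by their enrichment label: 3 WT NAD-Capture libraries and 3 DXO-KO-labelled NAD-Capture libraries. All came from HEK293T, an embryonic kidney cell line, grown without any treatment. The 2 other libraries, of WT RNA depleted of ribosomal RNA with RiboMinus and not captured, served as a reference for the level of each RNA and entered no test. They were made with a TruSeq kit and the captured libraries with a SMARTer low-input kit, so levels set across the enrichments also cross library kits. The capture protocol names a reaction without the cyclase as its background control. Libraries of that reaction were not analysed here, so a captured FPKM may include RNA that was pulled down without NAD. The sources used here do not say how DXO was disrupted or whether the line is a single clone. No label states that replicates came from separate cultures, so p-values measure only the spread between these libraries. Values are FPKM, a fragment count corrected for transcript length and library size, summed over the transcripts of a gene. Of 25968 gene symbols in the table, 17767 had a mean of at least 1 FPKM over the 6 captured libraries and were tested.

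Most RNAs made by RNA polymerase II begin with a methylguanosine cap. A small part instead begins with NAD, the metabolite that carries electrons in energy metabolism. DXO is a decapping enzyme that removes whole NAD from the end of an RNA and then degrades the body, while NUDT12, a Nudix hydrolase, splits the NAD itself. In NAD-Capture an ADP-ribosyl cyclase swaps part of the NAD for an alkyne, a click reaction adds biotin there, and streptavidin beads then pull the RNA down. Small nucleolar RNAs (snoRNA) guide modification of ribosomal RNA; those of Cajal bodies (scaRNA) guide modification of spliceosomal RNA. Most of both are cut out of introns of host genes.

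The captured libraries were shallow. The FPKM worth of 1 fragment on 1 kb of effective sequence was 5.22, 6.05 and 4.01 in WT replicates 1 to 3 and 1.24, 7.33 and 12.4 in DXO-KO-labelled replicates 1 to 3, against 0.0937 and 0.114 in RiboMinus. The deepest and the shallowest captured library thus carried the same label. Genes above 0 numbered 15074 to 16969 in WT and 12063 to 18062 in DXO-KO-labelled libraries. Of 8 markers of HEK293 cells, all 8 were above 0 in each WT library and in DXO-KO-labelled replicate 1, with 7 and 5 in replicates 2 and 3. Of 13 markers of blood, liver, fibroblasts and epithelium, 2 to 5 were above 0 per captured library, with a summed level of 9.17 to 24.2 FPKM in WT and 5.03 to 21.2 FPKM in DXO-KO-labelled libraries. Of the 4 blood cell genes in that list, PTPRC and HBB were at 0 in all 8 libraries, CD74 was at 12.1 FPKM in WT replicate 2 and 6.39 FPKM in DXO-KO-labelled replicate 2, and CD3E was at 0.93 FPKM in DXO-KO-labelled replicate 1.

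DXO itself was the check of the label. Its RNA stood at 33.2, 17.2 and 27.1 FPKM in WT replicates 1 to 3 and at 128, 61.6 and 71.7 FPKM in DXO-KO-labelled replicates 1 to 3. No WT value reached the lowest DXO-KO-labelled one, so DXO RNA was not lower where the label calls it knocked out. The log2 difference was 1.69 (SE 0.387, limma adjusted p = 0.114; two-sided exact permutation p = 0.1, the smallest that 3 against 3 can give). The values rest on 9, 4 and 10 fragments in WT and on 147, 12 and 8 fragments in DXO-KO-labelled libraries. DXO is listed as 6 rows that are copies of 1 transcript, and the fragment numbers are read from their summed FPKM. How fragments were divided among these copies was not tested. WHR1, a gene that overlaps DXO, was at 12.8, 8.40 and 8.65 FPKM in WT and at 2.66, 0 and 0 FPKM in DXO-KO-labelled libraries, lower where DXO was higher. How fragments were divided between the 2 genes was not tested. Directions below are given for the libraries as labelled, and the RNA level does not show whether the protein was lost.

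Among single genes, 3 small RNAs rose and 3 little-expressed genes fell past the threshold of a limma adjusted p under 0.05. These 6 of 17767 genes make up 0.0338% of those tested, 0.0169% in each direction. An unadjusted p under 0.05 was reached by 1254 higher genes (7.06%) and 1717 lower genes (9.66%). The groups did not overlap for 2095 higher genes (11.8%) and 2049 lower genes (11.5%). The count rose to 55 among the 9226 genes above 0 in all 6 libraries, so the number of calls depends on which genes are tested.

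The 3 RNAs that rose are shown by sequence, MIR1248 by its mature RNA only. Each is annotated as a small RNA and not a messenger RNA. SNORD11, a C/D box snoRNA, lies within NOP58 on chromosome 2; capitals mark its C box (TGATGA) and D box (CTGA). SNORA32, an H/ACA box snoRNA, lies within TAF1D on chromosome 11; capitals mark the ACA box near its 3′ end. Both are from the transcripts of GENCODE release 29. For MIR1248 on chromosome 3 the mature RNA is given from RefSeq (assembly GRCh38.p14), with the seed in capitals. The row that rose is the MIR1248 gene of 106 bases, and the mature RNA was not measured apart from it.
SNORD11: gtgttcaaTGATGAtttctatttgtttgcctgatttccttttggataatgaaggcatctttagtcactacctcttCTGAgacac
SNORA32: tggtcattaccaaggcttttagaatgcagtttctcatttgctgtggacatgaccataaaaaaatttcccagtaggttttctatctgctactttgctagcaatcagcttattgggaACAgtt
hsa-miR-1248: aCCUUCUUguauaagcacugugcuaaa
Of 288 SNORD transcripts in that release, 76.7% hold both TGATGA and CTGA on the strand given, and of 149 SNORA transcripts 75.2% hold ACA exactly 3 bases from the end. The boxes are thus what most snoRNAs carry and do not set these members apart.

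SNORD11 was listed at 0 in the 3 WT libraries and stood at 9115, 59810 and 114765 FPKM in DXO-KO-labelled replicates 1 to 3 (limma adjusted p = 0.000248). SNORA32 was listed at 0 in WT and at 1674, 915 and 5106 FPKM in DXO-KO-labelled libraries (limma adjusted p = 0.000248). MIR1248 was listed at 0 in WT and at 445, 6235 and 1497 FPKM in DXO-KO-labelled libraries (limma adjusted p = 0.00257). In each case the groups did not overlap, and no fold is given against a group listed at 0. SNORD11 and SNORA32 were also listed at 0 in both RiboMinus libraries, where their host genes were detected, so a listed 0 may be a failed estimate for RNAs this short.

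The genes around these small RNAs did not pass the test. NOP58, a core protein of C/D box particles and the host of SNORD11, stood at 87.8, 88.5 and 58.9 FPKM in WT and at 56.7, 106 and 84.6 FPKM in DXO-KO-labelled libraries. TAF1D, a subunit of the RNA polymerase I selectivity factor and the host of SNORA32, stood at 54.9, 74.4 and 45.9 FPKM in WT and at 75.2, 108 and 112 FPKM in DXO-KO-labelled libraries. The host values overlapped for NOP58 and were higher in every DXO-KO-labelled library for TAF1D (log2 difference 0.75, SE 0.311, limma adjusted p = 0.284). MIR1248 overlaps SNORA81, an H/ACA box snoRNA, within EIF4A2, a translation initiation helicase. SNORA81 was at 1956, 2633 and 873 FPKM in WT and at 888, 5620 and 16724 FPKM in DXO-KO-labelled libraries. EIF4A2 was at 263, 224 and 206 FPKM in WT and at 299, 587 and 634 FPKM in DXO-KO-labelled libraries. Reads of MIR1248 and SNORA81 cannot be told apart where their annotations overlap.

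The 3 genes that fell were VPREB3, ZBTB46-AS1 and PHACTR3-AS1. VPREB3, a gene of the pre-B cell receptor complex, was at 61.1, 70.5 and 93.2 FPKM in WT, from 5, 5 and 10 fragments, and was listed at 0 in all DXO-KO-labelled libraries (limma adjusted p = 0.00196). ZBTB46-AS1, an antisense RNA on chromosome 20, was at 22.7, 65.7 and 39.3 FPKM in WT and listed at 0 in all DXO-KO-labelled libraries (limma adjusted p = 0.028). PHACTR3-AS1, on the same chromosome, was at 30.2, 34.9 and 23.1 FPKM in WT, from 3 fragments in each, and listed at 0 in the others (limma adjusted p = 0.028). In DXO-KO-labelled replicates 2 and 3, 1 fragment on 1 kb was worth 7.33 and 12.4 FPKM, and more on an RNA of 668 bases. A listed 0 of PHACTR3-AS1 in these replicates therefore says little. RiboMinus levels of these genes were 0.456 and 0.546 FPKM for VPREB3, 0.103 FPKM and a listed 0 for ZBTB46-AS1, and 0 for PHACTR3-AS1. All 3 were therefore near the floor in uncaptured RNA. MIR1248 and VPREB3 missed the threshold without any 1 of the WT libraries, and the 2 antisense RNAs also without DXO-KO-labelled replicate 1. ZBTB46, the gene that ZBTB46-AS1 overlaps, was at 8.36, 13.4 and 17.8 FPKM in WT and at 4.75, 5.84 and 2.47 FPKM in DXO-KO-labelled libraries. Whether the counting used strand is not stated, so reads of an antisense RNA and its partner cannot be told apart.

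Outside the snoRNAs, the 10 genes with the smallest p in each direction, among those whose groups did not overlap and whose higher group averaged at least 10 FPKM, are described next whether or not they passed. The higher ones were led by MIR1248, GNG10, RHOC and H3C14, and only MIR1248 of these 10 passed. RHOC, a small GTPase that acts on the actin cytoskeleton, was at 4.64, 5.39 and 3.58 FPKM in WT and at 58.5, 43.8 and 34.2 FPKM in DXO-KO-labelled libraries. Its mean was 10.0 times higher there (log2 difference 3.05, SE 0.378, limma adjusted p = 0.0508). The WT values of RHOC lie below the worth of 1 fragment on 1 kb in those libraries (5.22, 6.05 and 4.01 FPKM). They thus rest on very few fragments, which limits the ratio and the spread. GNG10, a G protein gamma subunit, was at 0, 0.123 and 0 FPKM in WT and at 14.9, 40.1 and 35.6 FPKM in DXO-KO-labelled libraries. The readthrough gene DNAJC25-GNG10, which overlaps it, was at 11.2 FPKM in WT replicate 2 and 0 elsewhere, so fragments may be split between them. ASB3, WASHC3 and H3C14 were listed at 0 in all WT libraries and at 7.44 to 51.2 FPKM in those labelled DXO-KO. For ASB3 the readthrough gene GPR75-ASB3 held 8.77, 13.6 and 11.3 FPKM in WT and 19.0, 0 and 0 FPKM in DXO-KO-labelled replicates 1 to 3. H3C14 is a histone H3 gene with the near-identical copy H3C15, and the split of reads between such copies is uncertain.

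MDM2, the ubiquitin ligase that restrains p53, was at 42.0, 41.8 and 45.8 FPKM in WT and at 151, 427 and 430 FPKM in DXO-KO-labelled libraries. Its mean was 7.77 times higher there (log2 difference 2.78, SE 0.425, limma adjusted p = 0.0684). NEAT1, the long noncoding RNA on which nuclear paraspeckles are built, was at 42.9, 48.4 and 37.9 FPKM in WT and at 144, 213 and 210 FPKM in DXO-KO-labelled libraries, a ratio of means of 4.39 (limma adjusted p = 0.0666). TIMP1, a secreted inhibitor of matrix metalloproteinases, was at 20.8, 24.1 and 32.0 FPKM in WT and at 102, 192 and 123 FPKM in DXO-KO-labelled libraries. These TIMP1 values rest on 3, 3 and 6 fragments in WT and on 57, 18 and 7 fragments in DXO-KO-labelled libraries. SCARB2, a lysosomal membrane protein, was at 8.05, 9.38 and 8.86 FPKM in WT and at 36.2, 46.6 and 54.4 FPKM in DXO-KO-labelled libraries. Neither TIMP1 nor SCARB2 passed (limma adjusted p = 0.0666 for each). Separate groups were a condition for naming these genes and add nothing to the test. RHOC, MDM2, NEAT1, TIMP1 and SCARB2 each passed when the test was limited to the 9226 genes above 0 in all 6 libraries.

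The 10 lower genes were PHACTR3-AS1, VPREB3, ZBTB46-AS1, ISLR, TYROBP, MUC3A, LINC02584, MUC6, LTA and LINC01978. All but the 3 named above missed the threshold. MUC6, a gel-forming mucin of the stomach, was at 85.2, 93.8 and 102 FPKM in WT, from 127, 121 and 200 fragments. It was at 10.4, 13.2 and 22.3 FPKM in DXO-KO-labelled libraries, from 66, 14 and 14 fragments (log2 difference −2.60, SE 0.343, limma adjusted p = 0.0604). MUC3A, a membrane mucin of the intestine, was at 37.3, 45.7 and 33.4 FPKM in WT and at 4.27, 2.61 and 4.40 FPKM in DXO-KO-labelled libraries (limma adjusted p = 0.0508). Both mucins were under 0.05 FPKM in RiboMinus RNA. Both passed among the 9226 genes above 0 in all 6 libraries (limma adjusted p = 0.0116 for MUC6 and 0.00909 for MUC3A). ISLR, the myeloid adaptor TYROBP, the cytokine LTA and the 2 LINC genes were at 11.5 to 39.7 FPKM in WT and at 0 to 1.00 FPKM in DXO-KO-labelled libraries.

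**Figure D1:**
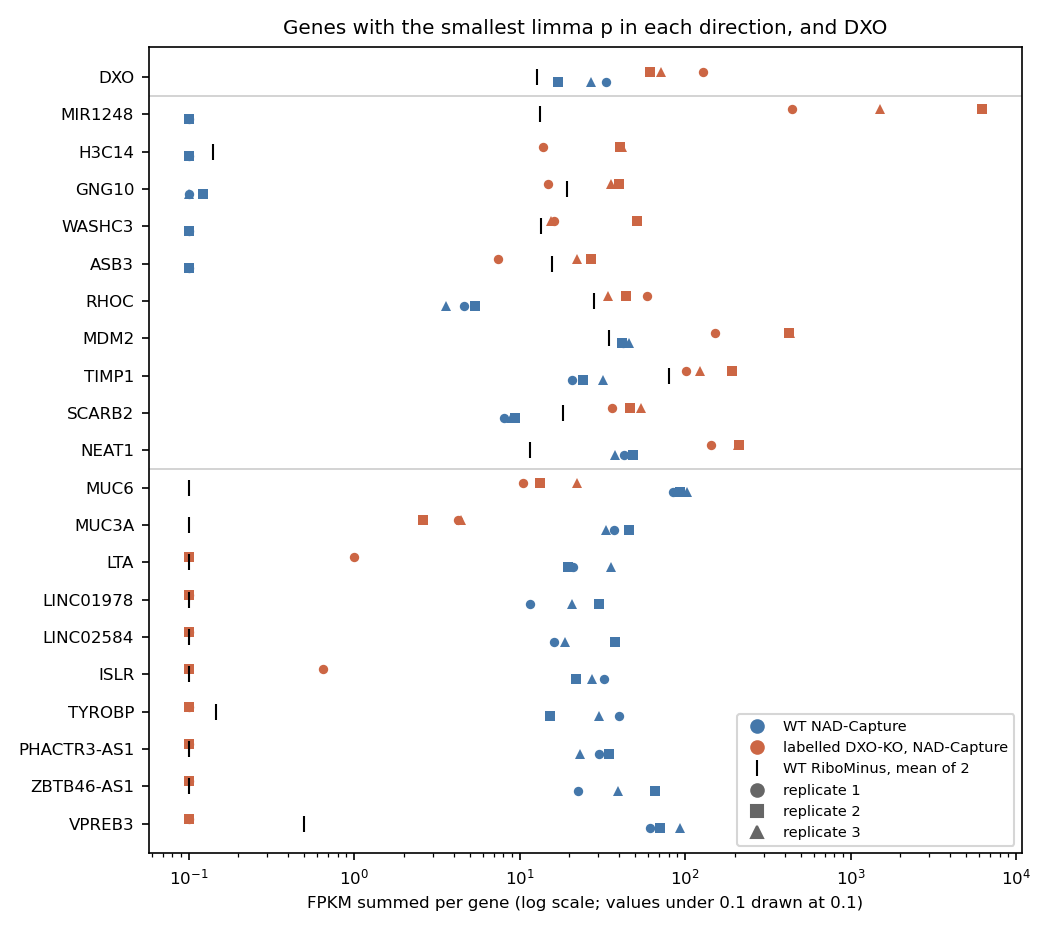
FPKM per library (log axis, values under 0.1 drawn at 0.1) for DXO and the 10 higher and 10 lower genes outside the snoRNAs with the smallest limma p; symbols are replicates, colours are groups and black ticks are the mean of the 2 RiboMinus libraries. The lower genes sit at or near the floor in RiboMinus RNA, whereas RHOC, MDM2, TIMP1, SCARB2 and NEAT1 among the higher ones lie between 10 and 100 FPKM there.

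In the fit limited to genes above 0 in all 6 libraries, 20 genes rose (0.217% of 9226) and 35 fell (0.379%). Among those that rose were JUN, an immediate early transcription factor, VIM and FLNA, which build intermediate filaments and crosslink actin, and NDRG1, a gene induced by hypoxia. JUN was at 87.0, 78.0 and 97.4 FPKM in WT and at 213, 339 and 354 FPKM in DXO-KO-labelled libraries (limma adjusted p = 0.0377 in that fit and 0.0776 over all genes tested). VIM was at 77.8, 103 and 72.5 FPKM in WT and at 215, 272 and 297 FPKM in DXO-KO-labelled libraries (limma adjusted p = 0.0448 and 0.0777). Each of these groups was separate from the other. Among those that fell, ROCK1P1, a partial copy of ROCK1, was at 1014, 1105 and 869 FPKM in WT and at 17.1, 38.5 and 143 FPKM in DXO-KO-labelled libraries (limma adjusted p = 0.00909 and 0.0684). Its RiboMinus level was 0.705 and 0.152 FPKM, and its reads may be shared with ROCK1. VENTX, MEG3, SPIB, IL2RB and JAK3, genes of lineage control, imprinting and blood cell signalling, fell in that fit too and were at 0.487 FPKM or less in RiboMinus. JUN, VIM, ROCK1P1 and the other genes of this paragraph lie outside the naming rule and were chosen after their values were seen.

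The direction of the difference followed how abundant a gene was in uncaptured RNA. The 2329 tested genes at 0 in RiboMinus had a median log2 difference of −1.12, with 21.8% higher in DXO-KO-labelled libraries. Genes at 0 to 0.1 FPKM and 0.1 to 1 FPKM in RiboMinus had medians of −1.11 (n = 1120) and −0.66 (n = 2418). The median was 0.07 at 1 to 10 FPKM (n = 5496), 0.36 at 10 to 100 FPKM (n = 5774, 69.3% higher) and 0.29 above 100 FPKM (n = 630), beside −0.02 over all 17767 genes. Groups that did not overlap and were lower made up 30.0% of the genes at 0 to 0.1 FPKM and 4.30% of those at 10 to 100 FPKM, against 11.5% of all. This is a description across genes, which are not replicates. Genes at 0 throughout 1 group, such as PHACTR3-AS1, passed the filter on mean FPKM through the other group alone. Their direction was fixed in advance.

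The same shift was seen library by library. Genes under 0.1 FPKM in RiboMinus took 3.79%, 3.79% and 5.42% of the FPKM outside short RNAs in WT replicates 1 to 3. They took 2.42%, 1.38% and 1.41% in DXO-KO-labelled replicates 1 to 3. The highest DXO-KO-labelled library thus lay below the lowest WT library, and the RiboMinus libraries were at 0.0281% and 0.0273%. Spearman's rank correlation across the tested genes was 0.569 to 0.615 between a WT and a RiboMinus library and 0.699 to 0.830 between a DXO-KO-labelled library and a RiboMinus library. Within captured groups it was 0.676 to 0.682 in WT and 0.684 to 0.793 in DXO-KO-labelled libraries.

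The base composition of transcripts moved with the difference too. From the lowest to the highest sixth of GC content the median log2 difference was 0.58, 0.41, 0.06, −0.30, −0.61 and −0.59. Per library, the median of log2(FPKM + 1) in the lowest sixth was 3.07, 3.01 and 3.01 in WT and 3.41, 3.68 and 3.87 in DXO-KO-labelled replicates 1 to 3. In the highest sixth it was 3.48, 3.46 and 3.50 in WT and 2.80, 2.81 and 2.85 in DXO-KO-labelled libraries. The 2 groups were separate in both sixths and the order of the sixths was opposite in the 2 groups. Among genes of at least 10 FPKM in RiboMinus the medians ran from 0.58 in the lowest sixth to −0.00 in the highest, and among genes under 1 FPKM from 0.29 to −1.09. Level in RiboMinus and GC content thus each moved with the difference at a given range of the other. By transcript length the medians ran from −0.27 in the shortest sixth to 0.25 in the longest. The part of GC content, length and library preparation in any difference between the groups was not tested.

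**Figure D2:**
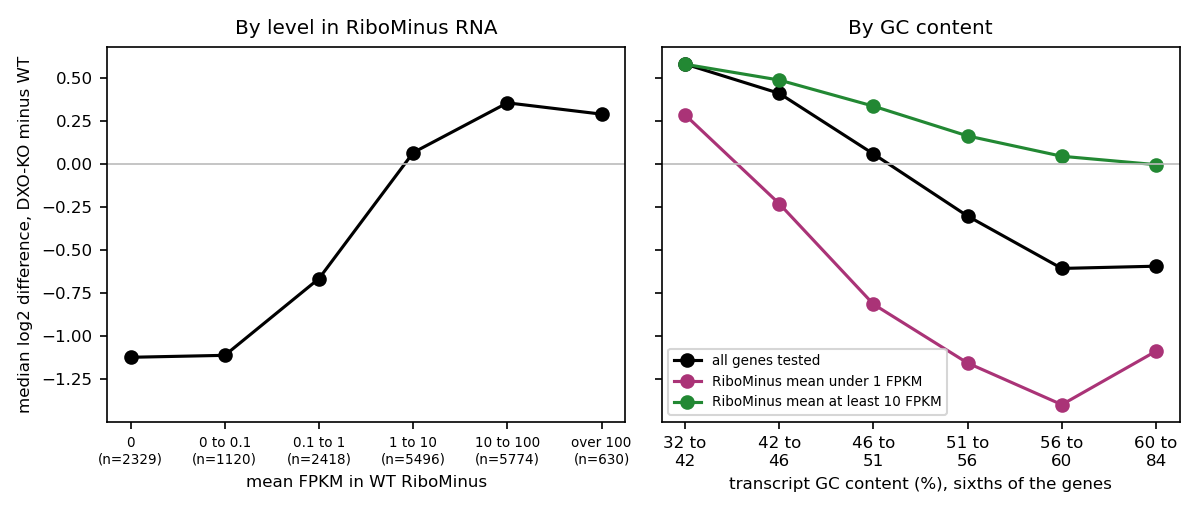
Median log2 difference (DXO-KO-labelled libraries minus WT, on log2(FPKM + 1)) of the tested genes by mean FPKM in WT RiboMinus RNA (left; n is the number of genes) and by sixth of transcript GC content (right), for all genes and for genes of low and high RiboMinus level. The median runs from −1.12 for genes at 0 in RiboMinus to 0.36 at 10 to 100 FPKM, and from 0.58 to −0.59 across the GC sixths.

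NAD can be put on an RNA at transcription in place of an initiating adenosine, so start sites were compared. Most snoRNAs and scaRNAs are cut out of introns, so the comparison does not bear on their ends. The RefSeq start of a gene was A for 47.0% of 13642 tested genes with a start sequence. It was A for 45.5% of the 1703 genes whose groups did not overlap and were higher in DXO-KO-labelled libraries, and for 51.4% of the 1476 that were lower. An annotated start need not be the start used in these cells, and the shares are a description with no test.

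More long noncoding RNAs were lower than higher in DXO-KO-labelled libraries. Of 543 long intergenic noncoding RNAs (LINC symbols), 386 were lower and 157 higher, with a median log2 difference of −0.96, beside −0.02 over all genes. The groups did not overlap for 93 that were lower and 7 that were higher, or 17.1% and 1.29% against 11.5% and 11.8% of all genes. Of 668 antisense RNAs, 438 were lower, with a median of −0.71, and 230 were higher. Of these RNAs 88 were lower without overlap (13.2%, near the 11.5% of all genes) and 16 were higher (2.40%, against 11.8%). ZBTB46-AS1 and PHACTR3-AS1 of this class passed the test. Rows at 0 in every DXO-KO-labelled library, such as these, LINC02584 and LINC01978, passed the filter on mean FPKM through WT alone. Their direction was fixed in advance, so the counts of lower LINC genes and antisense RNAs are no test. LINC01679, among the most abundant LINC genes, was at 95.0, 90.3 and 75.1 FPKM in WT, from 47, 39 and 49 fragments, and at 27.9, 13.5 and 4.62 FPKM in DXO-KO-labelled libraries, from 58, 5 and 1 fragments. It did not pass (log2 difference −2.71, SE 0.549, limma adjusted p = 0.1) over all genes tested, and passed among the genes above 0 in all 6 libraries (limma adjusted p = 0.0345). LINC02210 overlapped between groups (37.0, 65.5 and 41.8 FPKM in WT against 23.3, 56.6 and 112 FPKM in DXO-KO-labelled libraries), and so did PCNA-AS1.

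Most LINC genes were at the floor of uncaptured RNA and most antisense RNAs were not: 70.7% and 31.4% were under 0.1 FPKM in RiboMinus, against 19.4% of all tested genes. Limited to genes of at least 1 FPKM in RiboMinus, an alternative chosen after seeing the data, the LINC median was 0.09 and the antisense median −0.12, with 96 antisense RNAs higher and 109 lower. The median of all 11900 genes in that fit was 0.25, and both classes lay below it. Only 59 LINC genes remained there, 32 higher and 27 lower. Transcribed pseudogenes had a median of −0.46 with 319 of 509 lower, a count with the same limit for any row at 0 throughout 1 group. Among the antisense RNAs that were higher was EPB41L4A-AS1, a noncoding host of a snoRNA, at 45.8, 29.5 and 27.5 FPKM in WT and at 53.2, 63.5 and 101 FPKM in DXO-KO-labelled libraries (log2 difference 1.04, SE 0.353, limma adjusted p = 0.213). Its RiboMinus level was 14.5 and 15.7 FPKM.

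Replication-dependent histones, whose messages end in a stem-loop without a poly(A) tail and which package newly made DNA, were lower. Of 58 tested genes 51 were lower and 7 higher, with a median log2 difference of −0.85. The groups of 15 were separate and lower, 25.9% against 11.5% of all genes, and 1 was separate and higher (H3C14). No histone gene passed the test (limma). H2AC4 was at 1733, 2670 and 1701 FPKM in WT and at 374, 597 and 599 FPKM in DXO-KO-labelled libraries (log2 difference −1.96, SE 0.414, limma adjusted p = 0.105). H2AC12 was at 4016, 4686 and 2973 FPKM in WT and at 500, 874 and 1908 FPKM in DXO-KO-labelled libraries (limma adjusted p = 0.178). Both core histone genes were lower in every DXO-KO-labelled library than in any WT library. The 2 most abundant members, H3C2 and H2BC5, overlapped. H3C2 was at 13317, 19466 and 9850 FPKM in WT and at 3838, 9936 and 16070 FPKM in DXO-KO-labelled libraries. H2BC5 was at 14274, 14013 and 7925 FPKM in WT and at 1903, 6160 and 9825 FPKM in DXO-KO-labelled libraries. DXO-KO-labelled replicate 1 was the lowest library for both.

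Histone genes are GC-rich (median 58.6%, against 51.0% of all tested genes with a sequence), and within bins of equal GC content, an alternative chosen after seeing the data, their median was −0.33. Many are near-identical copies, so reads could be split among them. The share of each library's summed FPKM on these histones was 6.69%, 5.89% and 6.32% in WT, 2.16%, 0.66% and 1.18% in DXO-KO-labelled libraries, and 5.14% and 5.16% in RiboMinus. The shares of the groups did not overlap (two-sided exact permutation p = 0.1, 0.15 after Benjamini-Hochberg adjustment over 6 classes). Polyadenylated histone variants, made also outside S phase, had a median of 0.52 over 9 genes. H2AZ1, the most abundant, went the other way, at 487, 464 and 344 FPKM in WT and at 202, 258 and 335 FPKM in DXO-KO-labelled libraries. H3-3B overlapped, at 266, 240 and 184 FPKM in WT and at 115, 240 and 229 FPKM in DXO-KO-labelled libraries.

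**Figure D3:**
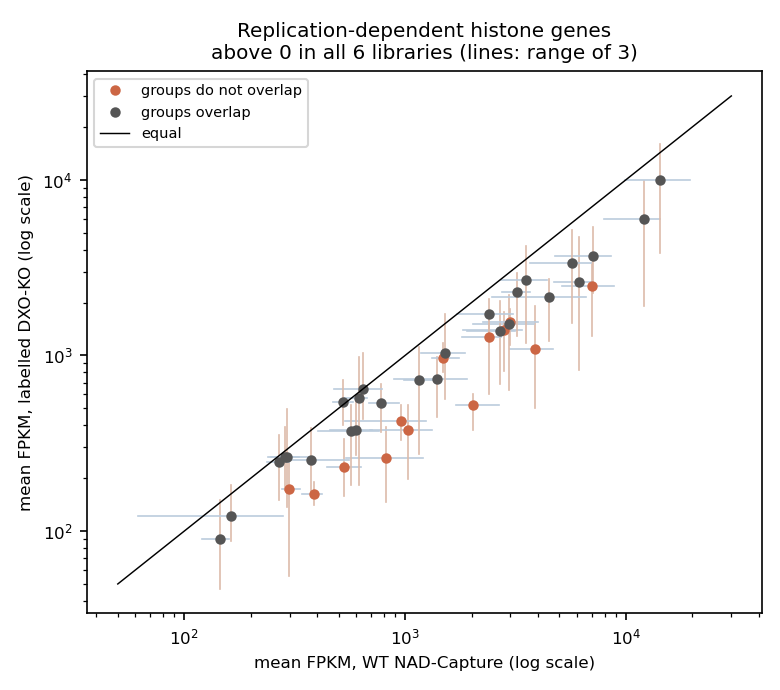
Mean FPKM of each replication-dependent histone gene above 0 in all 6 captured libraries, WT (x axis) against DXO-KO-labelled libraries (y axis), both on log axes; lines span the 3 replicates and the diagonal marks equal means. Most genes lie below the diagonal, among them H2AC4 and H2AC12, whose groups do not overlap.

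Among guide RNAs, the small Cajal body RNAs were mostly higher. Of 24 tested scaRNAs 20 were higher, and the groups of 14 did not overlap (58.3% against 11.8% of all genes). The 20 include SCARNA14 and SCARNA27, above 0 only in DXO-KO-labelled replicate 1. The lower ones include SCARNA11, above 0 only in WT replicate 1. Each passed the filter on mean FPKM through that group alone, so its direction was fixed in advance. No scaRNA was lower without overlap. SCARNA12 was at 255, 146 and 192 FPKM in WT and at 897, 845 and 1413 FPKM in DXO-KO-labelled libraries, with the groups separate (log2 difference 2.40, SE 0.367, limma adjusted p = 0.0684). SCARNA13 was at 123, 280 and 424 FPKM in WT and at 1529, 1947 and 2825 FPKM in DXO-KO-labelled libraries (limma adjusted p = 0.0776). Both passed in the fit of genes above 0 in all 6 libraries. The 2 most abundant scaRNAs, SCARNA1 and SCARNA4, were higher by 2.34 and 2.46 on the log2 scale and did not pass (limma adjusted p = 0.552 and 0.315). SCARNA1 was at 17984, 23689 and 9100 FPKM in WT and at 27948, 70953 and 256442 FPKM in DXO-KO-labelled libraries, so replicate 3 alone held the highest value by far. SCARNA21 was at 747, 417 and 554 FPKM in WT and at 300, 0 and 2538 FPKM in DXO-KO-labelled libraries, overlapping.

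Of 87 H/ACA box snoRNAs 73 were higher and 28 were higher without overlap (32.2%, against 11.8% of all genes). Of 27 C/D box snoRNAs 23 were higher and 4 without overlap (14.8%, near the share of all genes). Some higher rows of both kinds, such as SNORD9, SNORD16, SNORA9 and SNORA15, were above 0 only in DXO-KO-labelled replicate 1. Some lower rows, such as SNORA78, were above 0 only in WT. Such rows passed the filter on mean FPKM through that group alone. Their direction was fixed in advance, so the counts of higher members are no test. The 2 most abundant H/ACA members, SNORA18 and SNORA20, were higher in every DXO-KO-labelled library than in any WT library and did not pass (limma adjusted p = 0.578 and 0.427). The most abundant C/D box rows were erratic. SNORD87 was at 5369880 FPKM in DXO-KO-labelled replicate 2 and listed at 0 in the other 7 libraries. SNORD45A was at 43049, 164464 and 0 FPKM in WT and at 95710, 568200 and 1262420 FPKM in DXO-KO-labelled libraries, which overlap. The FPKM of an RNA near or under the fragment length depends strongly on the length correction. The noncoding host genes of snoRNAs had 13 of 25 higher, with a median of 0.04 that ran from −0.26 without DXO-KO-labelled replicate 3 to 0.26 without replicate 2, was −0.23 and −0.03 without WT replicates 2 and 3, and was −0.22 after quantile normalization. SNHG29 was at 285, 364 and 440 FPKM in WT and at 210, 452 and 608 FPKM in DXO-KO-labelled libraries. SNHG8 overlapped as well. The groups of 5 hosts were higher without overlap (20.0%, against 11.8% of all genes): ZFAS1, SNHG1, SNHG6, SNHG7 and SNHG12. SNHG20 was lower without overlap, at 15.8, 15.3 and 10.2 FPKM in WT and at 7.55, 10.1 and 6.32 FPKM in DXO-KO-labelled libraries.

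Among other abundant short noncoding RNAs, the groups of RMRP, RPPH1, RNU11, RNU12 and VTRNA1-3 overlapped. RMRP, the RNA of RNase MRP, was at 231141, 357386 and 129994 FPKM in WT and at 114322, 401513 and 868551 FPKM in DXO-KO-labelled libraries. RPPH1, the RNA of RNase P, was at 133515, 208915 and 93714 FPKM in WT and at 83601, 286102 and 454312 FPKM in DXO-KO-labelled libraries. In both, DXO-KO-labelled replicate 1 was below every WT library and replicate 3 above. RNU11 and RNU12, RNAs of the minor spliceosome, and the vault RNA VTRNA1-3 overlapped between groups too. As a share of summed FPKM, RMRP, RPPH1 and related RNAs took 24.7% ± 3.07 (SD, n = 3) in WT and 16.2% ± 7.81 (SD, n = 3) in DXO-KO-labelled libraries (two-sided exact permutation p = 0.2, 0.2 adjusted). The sign of that difference depends on the denominator. Among genes that are not snoRNA or scaRNA the same share was 12.1 percentage points higher, not lower, in DXO-KO-labelled libraries.

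Rows named for microRNA genes took 13.4%, 17.7% and 18.8% of summed FPKM in WT and 8.04%, 2.06% and 6.24% in DXO-KO-labelled libraries (two-sided exact permutation p = 0.1, 0.15 adjusted). Single rows varied widely between libraries. MIR301B was at 211384 FPKM in WT replicate 2 and listed at 0 in the other 7 libraries. MIR6723 was at 57832, 23159 and 0 FPKM in WT and at 27372, 98921 and 161748 FPKM in DXO-KO-labelled libraries. Of 55 tested microRNA genes 51 were under 0.1 FPKM in RiboMinus. Cytoplasmic ribosomal proteins took 6.76%, 5.10% and 6.60% in WT and 3.46%, 1.69% and 3.02% in DXO-KO-labelled libraries (two-sided exact permutation p = 0.1, 0.15 adjusted). Gene by gene, however, 57 of 85 ribosomal protein genes were higher, with a median log2 difference of 0.28, which turned to −0.19 after quantile normalization and to −0.12 without DXO-KO-labelled replicate 3. Among genes that are not snoRNA or scaRNA, the share of ribosomal proteins differed by −0.32 percentage points and that of histones by −4.73. Shares within a library depend on each other, and the snoRNA and scaRNA rows took 23.8% ± 3.26 (SD, n = 3) of summed FPKM in WT and 62.3% ± 18.0 (SD, n = 3) in DXO-KO-labelled libraries.

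**Figure D4:**
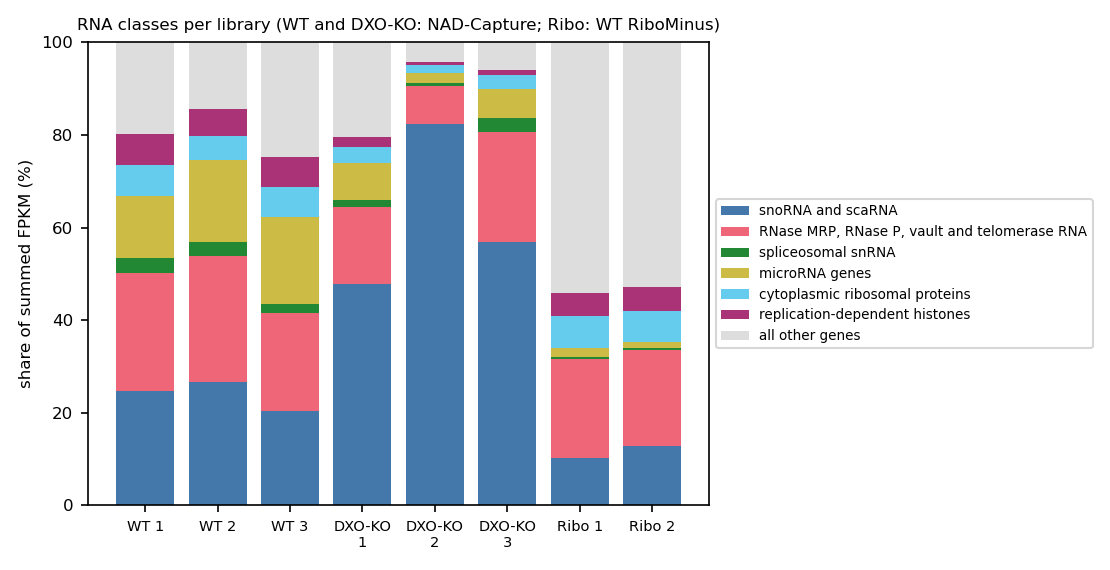
Share of each library's summed FPKM (%) taken by 6 RNA classes and by all other genes, stacked per library. Histones and ribosomal proteins take less in all 3 DXO-KO-labelled libraries than in any WT library, and snoRNA and scaRNA rows take more.

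Coding pathways of abundant genes had medians slightly above 0, actins and tubulins excepted, which after quantile normalization were below 0 (−0.14 to −0.018) in all but the translation factors. The medians were 0.27 for 76 oxidative phosphorylation subunits (51 higher), 0.34 for 17 glycolytic enzymes (11 higher), 0.29 for 37 proteasome subunits (29 higher) and 0.29 for 22 chaperones (19 higher). They were 0.29 for 64 translation factors (45 higher), 0.21 for 79 splicing factors (51 higher), 0.13 for 77 mitochondrial ribosomal proteins (45 higher), 0.30 for 15 snoRNP proteins (11 higher) and −0.01 for 11 actins and tubulins (5 higher). No member of these 9 lists passed the test. These medians lie beside 0.36 and 0.29 for genes at 10 to 100 FPKM and above 100 FPKM in RiboMinus, the levels at which most of these genes sit. Groups were higher without overlap for 13 of 64 translation factors (20.3%) and 4 of 17 glycolytic enzymes (23.5%), against 11.8% of all genes. That share was 21.5% of tested genes at 10 to 100 FPKM in RiboMinus and 16.3% of those above 100 FPKM. The share was 16.2% for the proteasome, 15.2% for splicing factors and 13.6% for chaperones. It was below that of all genes for oxidative phosphorylation (9.21%), mitochondrial ribosomal proteins (6.49%), and snoRNP proteins and actins and tubulins (0 for both). Lower without overlap were 9.09% of actins and tubulins, 8.11% of proteasome subunits, 7.79% of mitochondrial ribosomal proteins and 5.88% of glycolytic enzymes. These lie beside 11.5% of all genes, and beside 4.30% and 4.44% of genes at 10 to 100 FPKM and above 100 FPKM in RiboMinus. The lower share was 3.1% for translation factors, 2.53% for splicing factors, 1.32% for oxidative phosphorylation and 0 for chaperones and snoRNP proteins. EEF2, the elongation factor that moves the ribosome along, was at 833, 652 and 486 FPKM in WT and at 844, 1362 and 1285 FPKM in DXO-KO-labelled libraries (log2 difference 0.83, SE 0.401, limma adjusted p = 0.332). Its groups were separate by a narrow margin.

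The most abundant genes of the other pathways overlapped between the groups. These were ENO1 and LDHB of glycolysis, COX6C and COX7B of the respiratory chain, RPL31 and RPL35 of the ribosome, and MRPL51 and MRPL21 of the mitochondrial ribosome. The list continues with PSMA4 and PSMB4 of the proteasome, the chaperones HSPE1 and HSP90AA1, the splicing proteins HNRNPA2B1 and HNRNPC, the snoRNP proteins FBL and NHP2, the translation factor EEF1G, and ACTG1 and TUBA1B of the cytoskeleton. ACTG1, for example, was at 1500, 1463 and 1025 FPKM in WT and at 924, 1612 and 1489 FPKM in DXO-KO-labelled libraries (log2 difference −0.01, SE 0.439, limma adjusted p = 0.995). TUBA1B was at 630, 660 and 488 FPKM in WT and at 351, 674 and 795 FPKM in DXO-KO-labelled libraries.

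**Figure D5:**
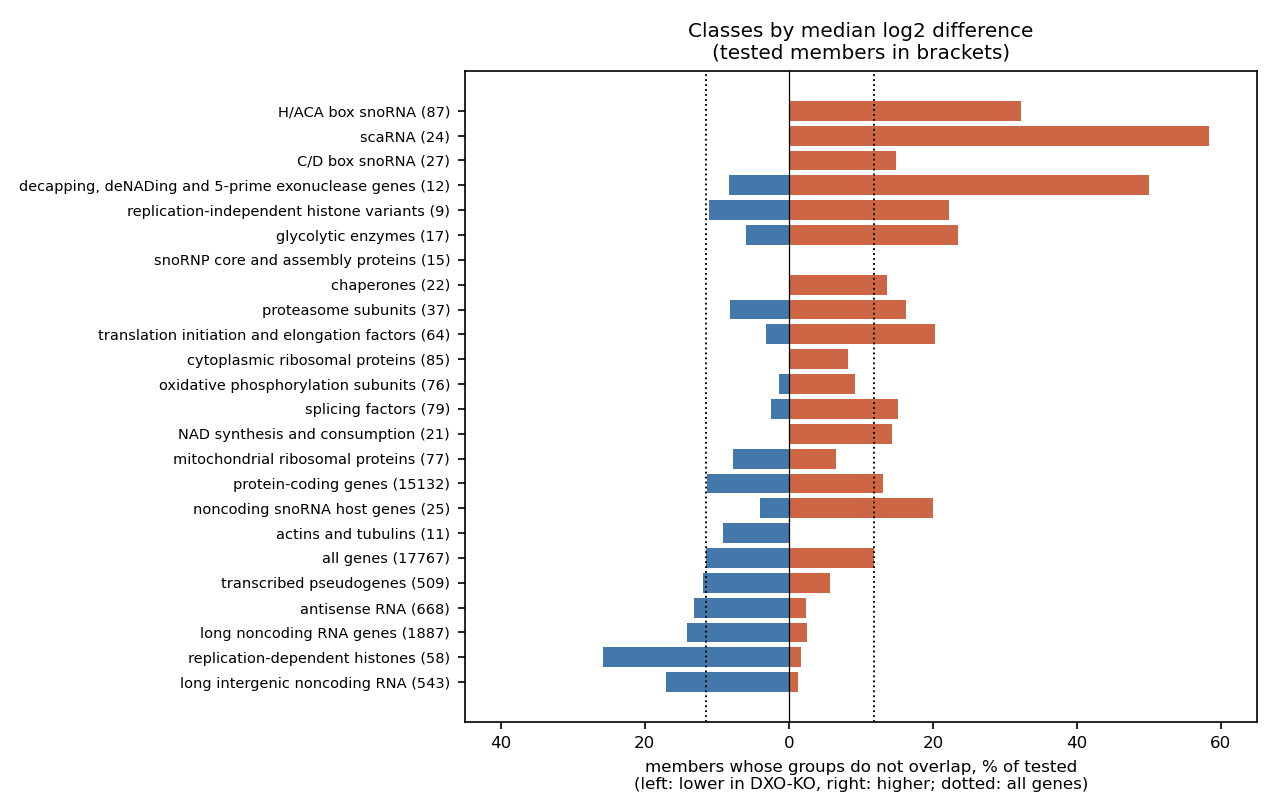
Percentage of tested members in each class whose WT and DXO-KO-labelled libraries do not overlap, lower to the left and higher to the right, with the values of all genes (11.5% and 11.8%) as dotted lines; classes are ordered by their median log2 difference. Histones and LINC genes extend to the left, and scaRNAs, H/ACA box snoRNAs and the decapping genes to the right.

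RNA decapping is the pathway of DXO. Of its 12 tested genes 8 were higher and 4 lower, with a median of 0.85, which was 0.41 in bins of equal GC content, an alternative chosen after seeing the data. The groups of 6 were higher without overlap (50.0%, against 11.8% of all genes): DXO, DCP1A, DCP1B, DCPS, NUDT12 and XRN2. None passed the test. DCP1A, a cofactor of the decapping enzyme DCP2, was at 8.31, 5.51 and 5.75 FPKM in WT and at 19.4, 16.8 and 19.2 FPKM in DXO-KO-labelled libraries (log2 difference 1.39, SE 0.387, limma adjusted p = 0.162). DCPS, which clears the cap left after RNA decay, was at 19.9, 46.3 and 40.0 FPKM in WT and at 60.8, 66.5 and 68.0 FPKM in DXO-KO-labelled libraries, from 5, 10 and 13 fragments and from 63, 12 and 7 fragments. NUDT12, the other NAD cap enzyme, was at 9.51, 7.39 and 6.25 FPKM in WT and at 11.8, 20.2 and 30.6 FPKM in DXO-KO-labelled libraries (log2 difference 1.25, SE 0.451, limma adjusted p = 0.233). The groups of these genes were separate. EDC3, an enhancer of decapping, was lower, at 23.2, 30.6 and 16.0 FPKM in WT and at 15.9, 14.4 and 3.48 FPKM in DXO-KO-labelled libraries, again separate by a narrow margin. DCP2 itself overlapped, at 39.6, 35.1 and 24.6 FPKM in WT and at 32.5, 41.8 and 38.9 FPKM in DXO-KO-labelled libraries.

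Genes that make and use NAD showed small differences. Of 21 tested genes 12 were higher, with a median of 0.16, and none passed. PARP1, the main nuclear consumer of NAD, was at 228, 189 and 170 FPKM in WT and at 208, 278 and 276 FPKM in DXO-KO-labelled libraries, overlapping. PARP2 was at 27.5, 10.9 and 26.6 FPKM in WT and at 37.2, 34.8 and 52.9 FPKM in DXO-KO-labelled libraries, and SIRT1, a NAD-dependent deacetylase, at 5.39, 1.80 and 5.99 FPKM against 11.0, 13.2 and 12.8 FPKM. PARP2, SIRT1 and SIRT5 were the 3 whose groups were higher without overlap (14.3% against 11.8% of all genes). NAMPT, the rate-limiting enzyme of the NAD salvage pathway, was at 19.2, 12.6 and 12.1 FPKM in WT and at 16.7, 26.8 and 22.7 FPKM in DXO-KO-labelled libraries.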

How the data were processed

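RNA of HEK293T cells was sequenced in 3 WT and 3 DXO-KO-labelled NAD-Capture libraries and 2 WT RiboMinus libraries. The authors deposited FPKM per RefSeq transcript and library. Per the submitters' processing notes, TopHat2 2.1.1, Bowtie2 2.2.8.0, Cuffdiff and build hg19 were used; the notes give no roles. No coordinates are printed, since the gene tables at hand are of another build. Of 53216 transcript rows, 52737 (99.1%) were paired with a symbol, and their FPKM was summed per gene. The main test was limma-trend (limma 3.58.1, R 4.3.3) on log2(FPKM + 1), two-sided, for genes with a mean FPKM of at least 1, with Benjamini-Hochberg adjustment over all of them and a threshold of 0.05; the fit was checked on simulated data. Fold differences on this scale understate the change of low genes. Depth was read from low FPKM values, 71.3% to 73.9% of which were within 4% of whole fragments. It came to 80760 to 805520 fragments per captured library; PCR copies among them are not independent molecules. Shares and DXO were compared with exact permutation tests (scipy 1.17.1).

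Genes were named by a rule: DXO, every gene past the threshold, the 10 with the smallest p in each direction outside snoRNAs with separate groups and a higher mean of at least 10 FPKM, the 2 most abundant members of each class and the 5 most abundant genes of each group. The members, classes and lists were chosen with earlier results of these data known. Alternatives changed the pseudocount, filter, scaling, unit of summing, libraries fitted and replicates. Same-numbered libraries did not deviate together (correlations −0.016, −0.004 and −0.033), so the numbers were not taken as pairs. Some genes are not reported here.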

Additional observations from a re-analysis of the deposited data

How the results depend on the processing

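The count of genes past the threshold (6 with limma) was 55 among genes above 0 in all 6 libraries (20 higher, 35 lower), 440 with all 8 libraries in the fit (123 higher, 317 lower), 27 after quantile normalization (8 higher, 19 lower) and 15 with a robust fit (6 higher, 9 lower). It was 11 with each library centred on its median gene (7 higher), with FPKM rescaled to the protein-coding total (6 higher) and with a pseudocount of 10 (3 higher). Within bins of equal GC content it was 16 (12 higher), and among genes of at least 1 FPKM in RiboMinus it was 1; both alternatives were chosen after seeing the data. It was 4 without a filter and with a pseudocount of 0.1, 5 at a mean of at least 10 FPKM, 8 for transcripts not summed per gene, and 4 to 16 when each library was left out, with 12 without DXO-KO-labelled replicate 2 and 16 without replicate 3. With the replicate number as a block, 4 genes passed and ZBTB46-AS1 and PHACTR3-AS1 did not; the numbers do not pair the libraries. Centring moved the median of all genes from −0.02 to 0.11. SNORD11 and SNORA32 passed under all 17 alternatives that gave them a value (limma adjusted p at most 0.0144). No alternative re-estimates a listed 0, so these passes cannot show whether the WT values were failed estimates. Each of the 6 genes past the threshold was listed at 0 throughout 1 group, which leaves no spread within that group. MIR1248 and VPREB3 missed the threshold when any 1 of the WT libraries was left out (limma adjusted p up to 0.0776 and 0.0832). ZBTB46-AS1 missed it under 9 of 16 alternatives and PHACTR3-AS1 under 8 of 17 (up to 0.269 each), also without any WT library or DXO-KO-labelled replicate 1. The log2 difference of DXO was positive throughout, at 1.38 to 2.40, and passed with all 8 libraries (1.69, limma adjusted p = 0.0493).

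Directions of named genes that had not passed turned as follows. Quantile normalization gave RMRP −0.90, RPPH1 −0.61, RNU11 −0.62, RNU12 −0.00090, SNHG29 −0.22, LINC02210 −0.16, RPL31 −0.89, MRPL51 −0.30, PSMB4 −0.0079, HSP90AA1 −0.46 and HNRNPC −0.31. Bins of equal GC content gave RPL31 −0.17, RPL35 0.58, H3C2 0.020, MRPL21 0.093, COX6C −0.065, ENO1 0.45, HSPE1 0.22, HSP90AA1 −0.45, HNRNPC −0.064, ACTG1 0.64 and TUBA1B 0.34. Centring gave MRPL21 0.0011, HSPE1 0.12, ACTG1 0.12 and TUBA1B 0.089, the protein-coding total MRPL51 −0.021 and HSP90AA1 −0.044, and a pseudocount of 10 HSPE1 0.00080. Leaving out each library gave ranges that cross 0: RMRP −0.042 to 1.42, RNU11 −0.41 to 1.40, RNU12 −0.38 to 0.91, SNHG29 −0.21 to 0.55, SNHG8 −0.21 to 1.71, LINC02210 −0.35 to 0.76, RPL31 −0.45 to 1.63, RPL35 −0.64 to 0.70, H3-3B −0.48 to 0.046 and MRPL51 −0.18 to 0.34. The same holds for MRPL21 at −0.40 to 0.20, LDHB −0.51 to 0.28, ENO1 −0.39 to 0.14, PSMA4 −0.70 to 0.40, HSPE1 −0.44 to 0.74, HSP90AA1 −0.33 to 0.56, HNRNPA2B1 −0.89 to 0.15, HNRNPC −0.24 to 0.84, ACTG1 −0.18 to 0.24 and TUBA1B −0.27 to 0.32. The cause was not tested.

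Class medians moved after quantile normalization to 1.37 for snoRNA and scaRNA, −0.14 for mitochondrial ribosomal proteins, −0.030 for oxidative phosphorylation, −0.043 for glycolysis, −0.020 for the proteasome, −0.080 for splicing factors and −0.070 for snoRNP proteins. In bins of equal GC content they moved to −0.33 for replication-dependent histones, 0.82 for glycolysis, 0.41 for decapping genes, 0.59 for NAD genes and 0.63 for actins and tubulins. Among genes of at least 1 FPKM in RiboMinus the LINC median was 0.088 and the antisense median −0.12, beside 0.25 over all genes of that fit. Leaving out each library gave 0.18 to 0.51 for oxidative phosphorylation, 0.13 to 0.65 for chaperones, 0.073 to 0.44 for splicing factors, 0.084 to 0.39 for snoRNP proteins and 0.25 to 0.40 for NAD genes. The medians of histones, antisense RNAs, scaRNAs and decapping genes kept their sign under all alternatives run. Among genes that are not snoRNA or scaRNA, the share difference turned to 12.1 percentage points for RNase MRP and P RNA and 0.893 for spliceosomal snRNA. Depth limits every gene that rests on a few fragments.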

Other observations

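Genes of cholesterol synthesis and its control, a list made after INSIG1 and IDI1 were seen among the lower genes, were mostly lower in DXO-KO-labelled libraries. Of 22 tested genes 18 were lower and 4 higher, with a median log2 difference of −0.43. Of the 22, 8 were lower without overlap, where 11.5% of all genes were. None of the 22 passed the test over all genes. INSIG1 and IDI1, which prompted the list, are among the 18 and the 8 and are no support for the pattern. INSIG1, which holds the sterol sensor in the endoplasmic reticulum, was at 72.4, 105 and 63.9 FPKM in WT and at 11.9, 20.2 and 24.7 FPKM in DXO-KO-labelled libraries (log2 difference −2.05, SE 0.366, limma adjusted p = 0.0783). IDI1, an isomerase of isoprenoid synthesis, was at 58.8, 59.1 and 43.5 FPKM in WT and at 6.40, 11.2 and 19.3 FPKM in DXO-KO-labelled libraries (limma adjusted p = 0.0921). The groups of these 2 genes were separate, as were those of SQLE, HMGCS1, FDFT1, DHCR7, MSMO1 and EBP. STARD4 was higher without overlap, at 4.94, 4.32 and 5.75 FPKM in WT and at 7.68, 6.90 and 17.0 FPKM in DXO-KO-labelled libraries. FDPS and CYP51A1 overlapped. INSIG1 and IDI1 were well detected in RiboMinus RNA, at 28.2 and 24.2 FPKM and at 32.2 and 33.2 FPKM. Within bins of equal GC content 13 of the 22 were lower, with a median of −0.18. Of the 22, 15 to 19 were lower after centring, quantile normalization or rescaling to the protein-coding total.

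Known targets of the transcription factor p53, a list made after MDM2 was seen among the higher genes, were mostly higher. Of 15 tested genes 14 were higher, 14 or 15 under each scaling, with a median log2 difference of 1.11. Low values limit this count. Among the 14, PLK3 was at 0, 2.80 and 0 FPKM in WT and at 0.576, 3.35 and 0 FPKM in DXO-KO-labelled libraries. FAS was at 9.53, 0 and 0 FPKM in WT and at 7.53, 13.3 and 0 FPKM in DXO-KO-labelled libraries. BBC3 and GDF15 were listed at 0 in WT replicate 2. Of the 15, 8 were higher without overlap, where 11.8% of all genes were. None of the 15 passed the test over all genes. MDM2, which prompted the list, is among the 14 and the 8 and is no support for the pattern. CDKN1A, an inhibitor of the cell cycle, was at 13.6, 9.23 and 15.2 FPKM in WT and at 38.6, 60.6 and 19.6 FPKM in DXO-KO-labelled libraries (log2 difference 1.46, SE 0.457, limma adjusted p = 0.19). RRM2B, a ribonucleotide reductase subunit, was at 6.89, 15.5 and 8.91 FPKM in WT and at 21.5, 32.1 and 29.8 FPKM in DXO-KO-labelled libraries. BAX and CCNG1 overlapped between the groups. MALAT1, a nuclear long noncoding RNA like NEAT1, was at 894, 881 and 626 FPKM in WT and at 1005, 3753 and 4430 FPKM in DXO-KO-labelled libraries, separate by a narrow margin in replicate 1 (limma adjusted p = 0.239). No part of depth, GC content or library preparation in these differences was tested beyond the values given.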
